A study of Mus musculus with 12 samples.

Results

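Pou4f1, Pou4f2, Pou4f3, Isl1 and Isl2 are 5 transcription factor genes of retinal ganglion cells, and they are described here across 12 RNA sequencing libraries of embryonic mouse retina. They were chosen by name, and all 5 were among the 19954 genes listed in the table of both sexes. The libraries came from retinas of stage E15.5 on a C57BL/6 background, each from a pool of 12 retinas taken from more than 1 litter. Mutant male and mutant female retinas had the genotype Six3-Cre:Tbr2f/f, in which Cre recombinase driven by Six3 regulatory sequence acts on floxed Tbr2 alleles in the developing eye field. Wildtype male and wildtype female retinas were the comparison, with no Cre or floxed allele named for them. Each of the 4 groups had 3 libraries, numbered 4, 5 and 6. The p-values therefore measure the spread between pools and not between embryos.

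POU4F1, POU4F2 and POU4F3 are POU homeodomain proteins, also known as BRN3A, BRN3B and BRN3C, and ISL1 and ISL2 are LIM homeodomain proteins. Ganglion cells are the first neurons born in the retina, from progenitors that have expressed the proneural factor ATOH7. POU4F2 and ISL1 come on in newborn ganglion cells and together drive a large part of their differentiation, POU4F1 and POU4F3 follow in overlapping subsets, and ISL2 marks a set of ganglion cells that project across the midline. Tbr2, listed under its gene symbol Eomes, encodes a T-box factor known to act downstream of POU4F2 and to be needed for the melanopsin-expressing ganglion cells, the ipRGC of the series title. The comparison of genotypes asks here whether the RNA of these earlier or parallel factors differed where Tbr2 was deleted.

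In the deposited tables, on mm10, Pou4f1 (ENSMUSG00000048349) lies on chromosome 14 from 104461676 to 104467999 on the minus strand. Pou4f2 (ENSMUSG00000031688) lies on chromosome 8 from 78433010 to 78436645, also on the minus strand. Isl1 (ENSMUSG00000042258) lies on chromosome 13 from 116298281 to 116309689 on the minus strand, and Isl2 (ENSMUSG00000032318) on chromosome 9 from 55538672 to 55546180 on the plus strand. All 5 are protein coding, and GENCODE vM21 gives the same bounds, with at most 3, 2, 2, 6 and 6 exons in a transcript of Pou4f1, Pou4f2, Pou4f3, Isl1 and Isl2. The longest run of identical bases between transcripts of different members was 71 bases, between Pou4f1 and Pou4f2, followed by 41 for Pou4f1 and Pou4f3, 35 for Pou4f2 and Pou4f3, and 23 for Isl1 and Isl2. A read that lay wholly inside such a run could not be assigned by its sequence. Isl2 was the only member that overlapped another annotated gene, the antisense gene Gm17226, which had 0 to 6 reads in a library.

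The 250 bases upstream of the RefSeq start (GRCm38.p6) are shown for the 4 members with a window, because Pou4f2 and Isl1 varied together across the libraries and because the deleted factor binds DNA. They are chr14:104468000-104468249 for Pou4f1, chr8:78436648-78436897 for Pou4f2 and chr13:116309689-116309938 for Isl1, all on the minus strand, and chr9:55540899-55541148 for Isl2 on the plus strand. They are written 5′ to 3′ along the gene, and capitals mark E-boxes, CANNTG, the sequence read by factors of the ATOH7 class.
Pou4f1: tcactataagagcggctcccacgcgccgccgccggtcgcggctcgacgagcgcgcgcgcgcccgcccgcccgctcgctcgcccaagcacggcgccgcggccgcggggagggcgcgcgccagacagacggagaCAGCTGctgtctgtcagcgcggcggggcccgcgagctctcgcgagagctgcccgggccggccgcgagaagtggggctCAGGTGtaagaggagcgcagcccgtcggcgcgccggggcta
Pou4f2: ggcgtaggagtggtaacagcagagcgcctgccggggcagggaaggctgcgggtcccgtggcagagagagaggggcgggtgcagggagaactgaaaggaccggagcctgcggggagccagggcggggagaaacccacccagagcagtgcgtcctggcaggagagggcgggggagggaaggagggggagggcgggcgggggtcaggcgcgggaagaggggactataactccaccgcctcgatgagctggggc
Isl1: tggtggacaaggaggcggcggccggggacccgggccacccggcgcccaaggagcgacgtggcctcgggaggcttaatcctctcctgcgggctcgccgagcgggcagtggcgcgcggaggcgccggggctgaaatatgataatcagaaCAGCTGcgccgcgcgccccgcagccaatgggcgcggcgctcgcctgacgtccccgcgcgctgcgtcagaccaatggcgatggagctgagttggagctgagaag
Isl2: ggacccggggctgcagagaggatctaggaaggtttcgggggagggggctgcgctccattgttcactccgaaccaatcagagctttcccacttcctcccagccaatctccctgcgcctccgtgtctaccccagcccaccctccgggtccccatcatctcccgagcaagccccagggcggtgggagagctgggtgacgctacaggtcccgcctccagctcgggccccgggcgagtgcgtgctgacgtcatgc
Both strands were searched for CANNTG, for the T-box sequence AGGTGTGA and its core AGGTGT, and for the homeodomain core TAAT. The Pou4f1 window held E-boxes starting at -118 and -41 from the start, and AGGTGT at -40, overlapping the second E-box. The Isl1 window held an E-box at -103 and TAAT at -177 and -112. The Pou4f2 and Isl2 windows held none of these letters, and AGGTGTGA was in none of the 4. Among 32851 windows of the same length, 66.2% held CANNTG, 54.9% TAAT, 11.8% AGGTGT and 1.12% AGGTGTGA, so the matches in Pou4f1 and Isl1 are of common kinds. The windows were rich in G and C, at 78.0% for Pou4f1, 71.2% for Isl1, 70.8% for Pou4f2 and 66.8% for Isl2. The Isl2 window lies inside the span that the deposited tables list for the gene.

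Total counts ranged from 18514607 in mutant male 6 to 27072825 in wildtype female 4. Of the ganglion cell markers 9 of 9 were in the table. They summed to 2537 to 2814 CPM, the count scaled to a common library total, in mutants and 2498 to 2694 CPM in wildtype. The largest parts of the sum were Nefm, Stmn2 and Gap43. These averaged 691, 624 and 576 CPM in mutants and 603, 628 and 582 CPM in wildtype. Rbpms averaged 89.3 and 88.8 CPM, Slc17a6 36.2 and 38.4 CPM, and Thy1 0.751 and 0.958 CPM. The part of other neurons in the sum was not tested. The libraries also fell into sets, each with both genotypes and both sexes. Reads of mt-Nd6, a mitochondrial gene, came to 373 to 484 CPM in 5 libraries (mutant male 4, mutant female 4, wildtype male 5 and wildtype females 4 and 6) and at 9.70 to 48.4 CPM in the other 7. Lens markers also varied, summing to 4.75 to 1565 CPM in mutants and 8.44 to 632 CPM in wildtype. Eomes, which checks the labels, was at 24.9, 21.2 and 27.4 CPM in mutant males and 9.62, 15.2 and 16.1 CPM in mutant females, against 56.8, 76.1 and 65.5 CPM in wildtype males and 53.8, 53.4 and 64.6 CPM in wildtype females. Every mutant library was below every wildtype library, and the log2 fold change was -1.76 (SE 0.15, edgeR adjusted p = 0.000484).

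Levels of different genes are compared as FPKM, which the authors scaled by gene length. In wildtype retina Isl1 was the most abundant member, with a mean of 64.6 ± 2.04 FPKM (SD, n = 6 libraries here and below), and ranked 1004 among the 19954 listed genes. Pou4f2 followed at 46.3 ± 3.15 FPKM and rank 1538, and Pou4f1 at 25.6 ± 3.34 FPKM and rank 3099. Isl2 was at 11.0 ± 2.75 FPKM and rank 6389, and Pou4f3 at 5.19 ± 0.944 FPKM and rank 9147. Isl1 and Pou4f2, which come on first in ganglion cells, stood highest, and each step down the order was larger than the spread between libraries. Isl1 was 1.40 times Pou4f2 (log2 ratio 0.48 ± 0.07), Pou4f2 was 1.82 times Pou4f1 (0.86 ± 0.22), Pou4f1 was 2.36 times Isl2 (1.24 ± 0.26) and Isl2 was 2.07 times Pou4f3 (1.05 ± 0.25). The first gene of each pair was higher in 6 of 6 wildtype libraries. The two-sided exact sign-flip permutation test gave p = 0.03125 for each of the 4 steps, the smallest that 6 libraries allow, and 0.03125 after Benjamini-Hochberg adjustment. The pairs were set by the order of the means in these same libraries, so these p-values are no separate support for it.

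Mutant retina had the same order. Isl1 averaged 63.0 ± 5.50 FPKM, Pou4f2 43.5 ± 4.81, Pou4f1 22.8 ± 2.56, Isl2 10.8 ± 2.86 and Pou4f3 4.65 ± 0.599 FPKM. The log2 ratios of neighbours were 0.54, 0.93, 1.12 and 1.16 down the order, with the first gene higher in 6 of 6 mutant libraries for each.

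**Figure D1:**
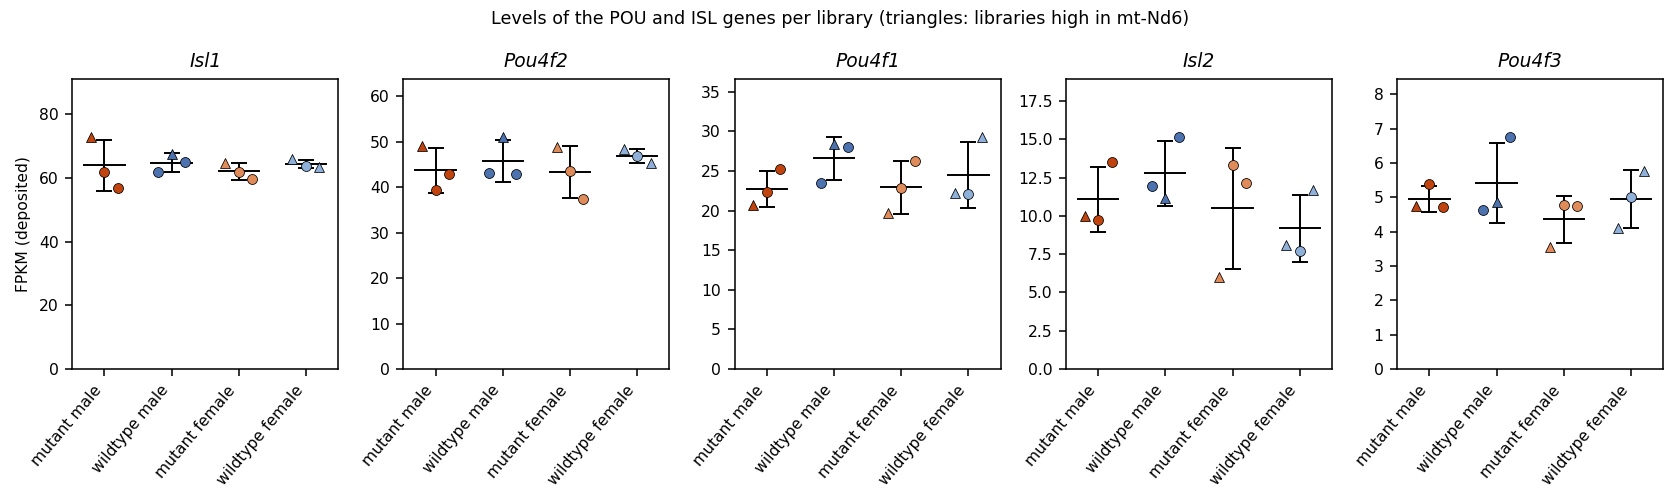
Deposited FPKM of the 5 members in each library, by genotype and sex, with a panel and a y axis from 0 for each gene; the long bar is the mean of 3 libraries, the short bars are ± 1 SD, and triangles mark the 5 libraries high in mt-Nd6. Mutant and wildtype points overlap in every panel, and Isl2 spreads most relative to its mean (CV 24.6%), from 5.98 FPKM in mutant female 4 to 15.2 FPKM in wildtype male 6.

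Loss of Eomes RNA came with no called change in any of the 5 genes. Their estimates lay between -0.17 and -0.01 on the log2 scale, with 95% intervals that all include 0. Over both sexes edgeR's quasi-likelihood test called 0 of 5 members at an adjusted p under 0.05, against 4 of 15467 genes tested (0.0259%). At an unadjusted p under 0.05 it gave 0 of 5 members, against 2.92% of all genes, and DESeq2 and limma voom also called 0 members. All 5 estimates were below 0, as were those of 52.7% of the genes tested, and the median of all genes was -0.01.

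Isl1, the LIM factor of newborn ganglion cells that is also active in amacrine and bipolar lineages, was the steadiest member. It was at 184, 156 and 143 CPM in mutant males 4, 5 and 6, against 155, 170.1 and 164 CPM in wildtype males. It was at 163, 155 and 150.2 CPM in mutant females 4, 5 and 6, against 166, 161 and 159.8 CPM in wildtype females. The highest and the lowest of the 12 values were both mutant males, so the wildtype range lay inside the mutant range. Means were 159 ± 13.9 CPM in mutants and 163 ± 5.13 CPM in wildtype. The log2 fold change was -0.04 (SE 0.07), a fold of 0.972 with a 95% interval of 0.880 to 1.07 (edgeR adjusted p = 0.928). In these bulk libraries fewer cells of a type and less RNA per cell cannot be told apart. Amacrine markers summed to 117 to 155 CPM in mutants and 131 to 180 CPM in wildtype (6 of 6 in the table). Bipolar markers summed to 33.4 to 51.1 and 39.6 to 53.6 CPM (4 of 4), but this sum was nearly all Trpm1. Trpm1 averaged 42.0 CPM in mutants and 43.3 CPM in wildtype. Vsx1 averaged 0.475 and 0.349 CPM, Cabp5 0.156 and 0.152 CPM, and Grm6 0.0392 and 0.0333 CPM. The part of amacrine and bipolar cells in the Isl1 level was not tested. Starburst amacrine markers, for cholinergic amacrine cells that also express Isl1, summed to 22.5 to 24.9 CPM in mutants and 18.6 to 31.2 CPM in wildtype. Of these 5 of 6 were in the table, without Chat, and Slc18a3 was at 0.210 and 0.0424 CPM on average. The largest parts of the sum were Megf10, at 13.5 and 13.8 CPM, and Megf11, at 6.52 and 7.33 CPM.

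Pou4f2, the POU factor that works with ISL1, was at 157, 126 and 138 CPM in mutant males 4, 5 and 6, against 138, 164 and 138 CPM in wildtype males. It was at 157, 139 and 119.8 CPM in mutant females, against 155, 150.0 and 145 CPM in wildtype females. The groups overlapped in both sexes, and the 2 lowest values were mutant libraries. Means were 139 ± 15.4 CPM in mutants and 148 ± 10.1 CPM in wildtype. The log2 fold change was -0.09 (SE 0.09), a fold of 0.937 with an interval of 0.823 to 1.07 (edgeR adjusted p = 0.918).

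Pou4f1, the POU factor known for shaping the dendrites of many ganglion cell types, had the largest estimate. It was at 91.8, 99.5 and 112 CPM in mutant males 4, 5 and 6, against 104, 126 and 124 CPM in wildtype males. It was at 87.3, 102 and 117 CPM in mutant females, against 98.8, 98.0 and 130.3 CPM in wildtype females. The 2 lowest values were mutant libraries and the 4 highest were 3 wildtype libraries and mutant female 6, with overlap in both sexes. Means were 102 ± 11.4 CPM in mutants and 114 ± 14.8 CPM in wildtype. The log2 fold change was -0.17 (SE 0.09), a fold of 0.890 with an interval of 0.773 to 1.02 (edgeR unadjusted p = 0.0950, adjusted p = 0.918). Markers of sensory ganglia, whose neurons also express Pou4f1 and Isl1, summed to 22.2 to 30.7 CPM in mutants and 23.3 to 25.8 CPM in wildtype, with 3 of 5 in the table and Tlx3 at 0.390 and 0.164 CPM on average.

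The Pou4f1 estimate moved with the library set. Within the 5 libraries high in mt-Nd6 both mutant values (91.8 and 87.3 CPM) were below the 3 wildtype values (126, 98.8 and 130.3 CPM), and the log2 fold change was -0.42 (edgeR unadjusted p = 0.00262, adjusted p = 0.486). In that fit of 5 libraries 1184 of 15941 genes had an unadjusted p under 0.05 by edgeR, 2 of the members among them. Within the other 7 the log2 fold change of Pou4f1 was 0.01 (adjusted p = 0.983). The difference between the sets, tested as an interaction after the data were seen, was -0.41 (interval -0.75 to -0.06, unadjusted p = 0.0234, edgeR adjusted p = 0.471). In that fit 1597 of 15467 genes had an unadjusted p under 0.05 and 0 passed after adjustment, so the difference in Pou4f1 was not called either.

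Isl2, known for repressing the ipsilateral projection programme, was the most variable member. It was at 18.6, 18.1 and 25.1 CPM in mutant males 4, 5 and 6, against 22.2, 20.7 and 28.1 CPM in wildtype males. It was at 11.1, 24.7 and 22.5 CPM in mutant females, against 15.0, 14.3 and 21.7 CPM in wildtype females. Mutant female 4 held the lowest value, while the other 2 mutant females were above all wildtype females. Means were 20.0 ± 5.30 CPM in mutants and 20.4 ± 5.11 CPM in wildtype. The log2 fold change was -0.01 (SE 0.19), a fold of 0.991 with an interval of 0.751 to 1.31 (edgeR adjusted p = 0.991). This was the widest interval among the 5 members. In the mt-Nd6 high and low sets the log2 fold change was -0.46 (edgeR unadjusted p = 0.0262, adjusted p = 0.633) and 0.15 (adjusted p = 0.808). In the fit of the high set 1184 of 15941 genes had an unadjusted p under 0.05 by edgeR. The interaction of genotype with the set was -0.60 (interval -1.30 to 0.10).

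Pou4f3, known chiefly for its role in hair cells of the inner ear, was the least abundant member, with 189 to 380 reads in a library. The gene (ENSMUSG00000024497) lies on mm10 chromosome 18 from 42394539 to 42397249 on the plus strand. It was at 11.2, 12.7 and 11.1 CPM in mutant males 4, 5 and 6, against 10.9, 11.5 and 16.0 CPM in wildtype males. It was at 8.38, 11.2 and 11.2 CPM in mutant females, against 9.68, 11.8 and 13.6 CPM in wildtype females. Mutant female 4 was the lowest and wildtype male 6 the highest of the 12. Means were 11.0 ± 1.41 CPM in mutants and 12.2 ± 2.23 CPM in wildtype. The log2 fold change was -0.16 (SE 0.12), a fold of 0.893 with an interval of 0.748 to 1.07 (edgeR adjusted p = 0.918).

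An exact permutation test of each member alone, with genotype labels exchanged within each sex, gave two-sided p = 0.135 for Pou4f1, 0.24 for Pou4f3, 0.305 for Pou4f2, 0.5 for Isl1 and 0.865 for Isl2, where 0.005 is the smallest possible. In 0 of 5 members did the 6 mutant and 6 wildtype libraries fail to overlap, against 0.207% of genes. The authors' deposited table of both sexes lists log2 fold changes of -0.128 for Pou4f1, -0.107 for Pou4f3, -0.0712 for Pou4f2, -0.0309 for Isl1 and -0.0122 for Isl2, with adjusted p-values of 0.951 to 0.989. That table called 15 of 15332 genes (0.0978%). The authors' deposited tables of males and females called 0 of 5 members, against 0.0295% and 0.0479% of genes. The deposited log2 fold changes are smaller in size than ratios of group means, as -0.812 for Eomes shows.

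**Figure D2:**
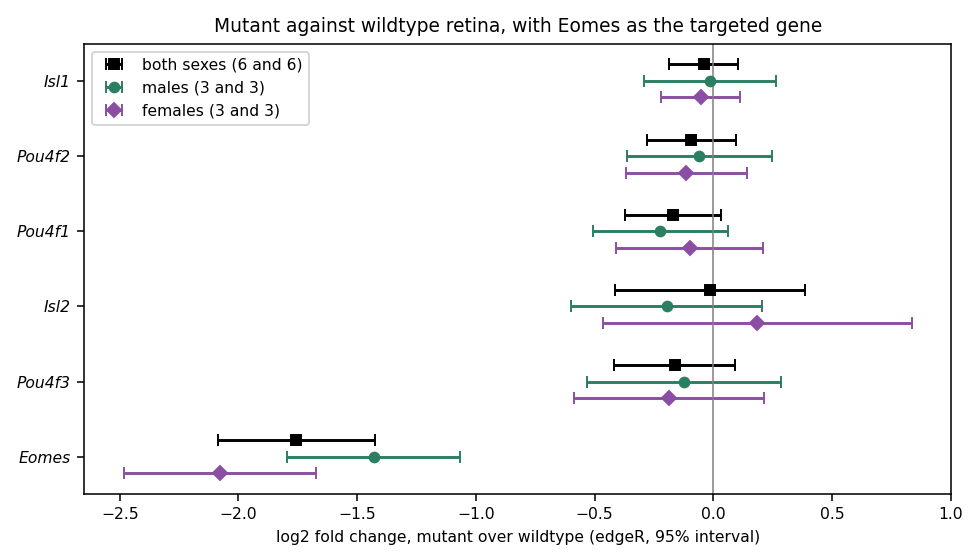
Log2 fold change of mutant over wildtype (x axis) for the 5 members and Eomes (rows), with 95% intervals from edgeR, over both sexes (squares, 6 and 6 libraries), in males (circles, 3 and 3) and in females (diamonds, 3 and 3). All member intervals cross 0, the Eomes intervals lie below -1, and over both sexes and in females the Isl2 interval is the widest of the members. The fits shown had no replicate block.

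Neither sex alone gave a call among the members, against 0 of 14945 genes in males (0.0%) and 1 of 14956 in females (0.00669%), where unadjusted p-values under 0.05 were 1.41% and 2.63% of genes. DESeq2 called 6 genes in males and 10 in females, and limma voom 0 and 1, with 0 members in each. The male fit did not call Eomes itself, at a log2 fold change of -1.43 (edgeR adjusted p = 0.295), so the lack of calls among the members in males carries little weight. In females, where same-numbered libraries deviated together, the fit with the replicate number as a block called 2 genes and 0 members. In males the log2 fold changes were -0.22 for Pou4f1, -0.20 for Isl2, -0.12 for Pou4f3, -0.06 for Pou4f2 and -0.01 for Isl1. In females they were -0.10 for Pou4f1, 0.19 for Isl2, -0.19 for Pou4f3, -0.11 for Pou4f2 and -0.05 for Isl1. The estimates and intervals given here for each sex are from fits without the block. Isl2 was the member whose estimates had opposite signs. Its interval ran from -0.60 to 0.21 in males and from -0.46 to 0.83 in females. The interaction, taken as the female effect minus the male effect, was 0.39 for Isl2 (interval -0.42 to 1.20, edgeR unadjusted p = 0.314). It was 0.13 for Pou4f1, -0.05 for Pou4f2, -0.05 for Pou4f3 and -0.03 for Isl1, and the test called 0 of 15467 genes (0.0%) with DESeq2 and limma voom also at 0. At an unadjusted p under 0.05 it gave 1.73% of genes and 0 of 5 members. With 3 libraries of each genotype in a sex, groups did not overlap for 5.51% of genes in males and 8.09% in females, and for 0 of 5 members in either.

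Sex itself made no called difference to the members over both genotypes, in a fit that called 2 of 15467 genes (0.0129%) and had 2.79% at an unadjusted p under 0.05, 0 of the members among them. Female over male, the log2 fold change was -0.26 for Isl2 (interval -0.66 to 0.14, edgeR unadjusted p = 0.189), -0.13 for Pou4f3, -0.03 for Pou4f1, 0.03 for Pou4f2 and -0.00 for Isl1.

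The balance within each family was also close in the groups. Pou4f1 made up 32.3 ± 4.25% of the summed FPKM of the 3 POU4F genes in mutants and 33.1 ± 2.90% in wildtype (n = 6 each). Pou4f2 made up 61.2 ± 4.92% in mutants and 60.2 ± 3.75% in wildtype, and Pou4f3 6.57 ± 1.01% and 6.73 ± 1.15%. Isl1 made up 85.3 ± 4.04% of the ISL sum in mutants and 85.6 ± 3.16% in wildtype. The differences of -0.85, 1.01, -0.16 and -0.22 percentage points were smaller than the spread between libraries (exact permutation p = 0.73, 0.735, 0.76 and 0.94, each 0.94 after adjustment over the 4). The lowest Pou4f1 shares were in mutant female 4 (27.2%) and mutant male 4 (27.7%), which also had the highest Pou4f2 shares (67.8% and 65.9%). Both are libraries high in mt-Nd6. The other libraries high in it had Pou4f1 shares of 33.7% (wildtype male 5), 29.7% (wildtype female 4) and 36.5% (wildtype female 6). Pou4f1 and Pou4f2 shares are parts of the same sum, so a low share of one goes with a high share of the other.

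Across the 12 libraries Pou4f2 and Isl1 varied together, as the scatter of these genes shows. Pearson's r of log2 CPM was 0.80 (permutation p = 0.00171, adjusted p = 0.0171 over 10 pairs of members) and Spearman's rho was 0.83 (permutation p = 0.0015, adjusted p = 0.0150). Without the 2 libraries farthest from the median of Pou4f2, r was 0.80, and it was 0.79 for deviations from the means of the 4 groups. Genes outside the members had a higher r with each, such as Tram1 with Pou4f2 (0.94) and Snx16 with Isl1 (0.95). Pou4f2 and Isl1 were also higher on average in the libraries high in mt-Nd6, and the permutations exchanged libraries without regard to these sets. Pou4f2 averaged 156 ± 6.68 CPM in the 5 libraries high in mt-Nd6 and 136 ± 9.85 CPM in the other 7, and Isl1 168 ± 9.21 and 155 ± 6.61 CPM. Within the 7 low libraries r was 0.44 (permutation p = 0.314), which did not pass in this smaller number of libraries, and no r is given for the 5 high libraries, which are under the minimum of 6.

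Among the other 3 genes r was positive for each pair, without a call. Pou4f1 and Isl2 had r = 0.66 and rho = 0.66, Pou4f3 and Isl2 r = 0.65 and rho = 0.28, and Pou4f1 and Pou4f3 r = 0.62 and rho = 0.43. None of these passed adjustment over the 10 pairs (permutation p = 0.0193, 0.0220 and 0.0264 for r, each 0.0661 adjusted, and rho p = 0.0245, 0.379 and 0.161). Without the 2 libraries farthest from the median of the first gene r was 0.79 for Pou4f1 and Isl2, 0.61 for Pou4f1 and Pou4f3, and 0.13 for Pou4f3 and Isl2, so the last rests on those libraries. Within the 7 libraries low in mt-Nd6 r was 0.76 for Pou4f1 and Isl2 (permutation p = 0.0440), 0.43 for Pou4f1 and Pou4f3 (permutation p = 0.367), and 0.23 for Pou4f3 and Isl2 (permutation p = 0.609). The 6 pairs of 1 of these 3 genes with Pou4f2 or Isl1 had r from -0.47 to -0.13, none past the threshold. Pou4f1 averaged 107 and 108 CPM, Isl2 17.4 and 22.2 CPM and Pou4f3 10.9 and 12.1 CPM in the libraries high and low in mt-Nd6.

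**Figure D3:**
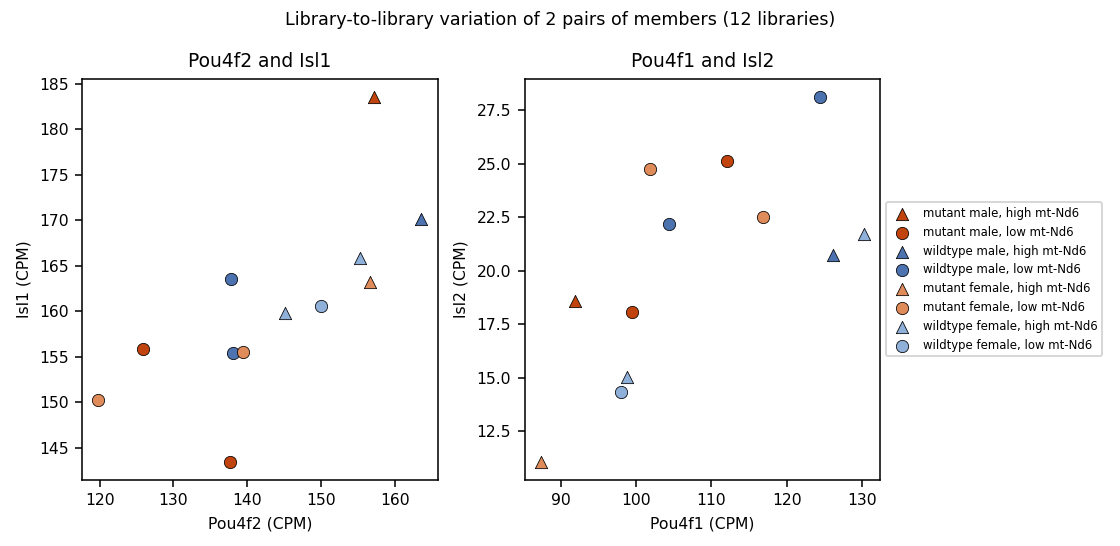
CPM of Isl1 (y) against Pou4f2 (x) at left, and of Isl2 (y) against Pou4f1 (x) at right, with a point for each of 12 libraries, coloured by genotype and sex, and triangles for libraries high in mt-Nd6. At left the triangles sit at the upper right, from 145 to 164 CPM of Pou4f2, and the r over all points is 0.80; at right it is 0.66, and the triangles spread over the whole x range.

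Spread within the groups differed between members. The pooled SD of log2 CPM was 0.38 for Isl2, larger than in 92.8% of the 500 genes nearest to it in level, whose median was 0.17. For Pou4f1 it was 0.18, larger than in 75.6% of such genes, for Pou4f2 0.17 (68.6%), for Pou4f3 0.21 (54.0%) and for Isl1 0.12 (47.0%). Isl2 was thus the least reproducible member for its level.

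The genes whose log2 CPM was most like each member over the 12 libraries, among 12643 genes, are given as a description. For Pou4f2 they were Tram1 (r = 0.94), Zfp933 (0.93), Fign (0.93), Six6 (0.92) and Serp1 (0.92), of which Six6 encodes a homeodomain factor of the eye field. For Isl1 they were Snx16 (0.95), Rab2a (0.94), Rufy3 (0.94), Scp2 (0.94) and Chmp2b (0.94), and Snx16, Rab2a and Chmp2b encode proteins of membrane traffic. For Pou4f1 they were Spon1 (0.91), Enpp5 (0.90), Syt6 (0.89), Ppp1r16b (0.88) and Alas2 (0.85), the last an enzyme of haem synthesis in red blood cells. For Pou4f3 they were Gap43 (0.92), an axon growth protein, Gnat2 (0.90), the transducin of cones, Slc32a1 (0.90), the vesicular transporter for GABA and glycine, Cdhr1 (0.89) and Arhgdig (0.88). For Isl2 they were Olig2 (0.93), a bHLH factor of progenitors, Rph3a (0.92), Pcbp3 (0.90), Tubb2a (0.90) and Ablim3 (0.89). No member was among the 5 genes most like another member.

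Relatives and partners of the 5 genes likewise held no call. Of 12 other POU genes 11 were in the table and 7 were tested, with 4 higher and 3 lower in mutants, 0 called and a median log2 fold change of 0.06, against -0.01 for all genes tested. Pou3f1 was at 33.8 FPKM in mutants and 29.4 FPKM in wildtype (log2 fold change 0.20), Pou2f2 at 16.3 and 15.0 FPKM (0.12) and Pou3f2 at 4.48 and 4.98 FPKM (-0.16). Of 10 other LIM homeobox genes 9 were in the table and 6 tested, 3 higher and 3 lower, with 0 called and a median of 0.02. Lhx2, needed to specify the eye field, was at 103 FPKM in mutants and 96.6 FPKM in wildtype (0.09), while Lhx9 was at 0.494 and 0.599 FPKM (-0.28), Lhx3 at 0.903 and 0.672 FPKM (0.39) and Lhx4 at 0.913 and 0.942 FPKM (-0.05).

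All 10 LIM cofactor genes were tested, 5 higher and 5 lower, with 0 called and a median of -0.01. Ldb1, the adaptor that joins LIM homeodomain proteins into complexes, was at 131 FPKM in mutants and 124 FPKM in wildtype (log2 fold change 0.07). Ssbp3, which binds LDB proteins, was at 134 and 129.6 FPKM (0.05), and Rlim, a ubiquitin ligase for LIM cofactors, at 9.19 and 10.3 FPKM (-0.18). Lmo2, a LIM-only gene, was the nearest to a call, at 35.5 FPKM in mutants and 24.4 FPKM in wildtype (0.54, SE 0.09, edgeR adjusted p = 0.0849).

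The 10 regulators of ganglion cell genesis were all tested, 5 higher and 5 lower, with 0 called and a median of 0.00. Atoh7, the proneural gene upstream of Pou4f2 and Isl1, was at 1385 FPKM in mutants and 1262 FPKM in wildtype (log2 fold change 0.12). Pax6, a homeodomain gene of progenitors, was at 139.8 FPKM in both genotypes (-0.00). The Notch receptor gene Notch1 was at 32.6 and 29.5 FPKM (0.14) and the Notch target Hes5 at 43.4 and 46.9 FPKM (-0.12). Progenitor markers summed to 4473 to 5355 CPM in mutants and 4414 to 4750 CPM in wildtype.

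Of the 14 ganglion cell differentiation genes, all tested, 5 were higher and 9 lower, with 0 called and a median of -0.02. Gap43 was at 406 FPKM in mutants and 409.7 FPKM in wildtype (log2 fold change -0.02), Stmn2, a regulator of neuronal microtubules, at 328 and 329.7 FPKM (-0.01), and the adhesion gene L1cam at 25.8 and 26.7 FPKM (-0.06). An unadjusted p under 0.05 was reached by 3 of the 14, against 2.92% of all genes, and all 3 were higher in mutants. The list was fixed with earlier results of these data known, so this count is no support for a change in the list. They were Ebf3, at 78.8 FPKM in mutants and 68.3 FPKM in wildtype (0.20), Nefm, at 188 and 164 FPKM (0.19), and Shh, at 2.25 and 1.52 FPKM (0.56), with an edgeR adjusted p of 0.918 each. Nefm and Shh were named after their values were seen.

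**Figure D4:**
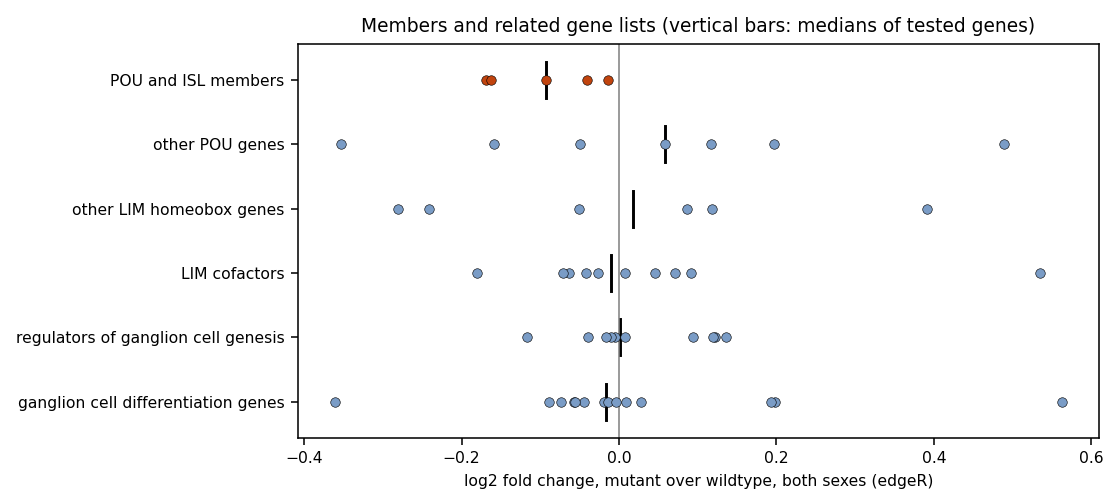
Log2 fold change of mutant over wildtype over both sexes (x axis) for the 5 members and the tested genes of 5 related lists (rows), with a vertical bar at each median. The members lie between -0.17 and -0.01, inside the range of 4 of the 5 lists (the regulators of genesis reach down to -0.12), and the list medians lie between -0.02 and 0.06.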

How the data were processed

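RNA was sequenced from 12 libraries. The submitters' processing notes name CASAVA for base calling, STAR 2.5 and the mm10 build for alignment, HTSeq 0.6.1 for counting and DESeq2 for comparison. Neither the strand setting of the counting nor its annotation release is stated there, so antisense reads cannot be told apart. Per the file headers, the deposited counts are whole read counts per gene and library. The deposited signal values equal the count divided by a constant of the library, and the deposited FPKM values scale the count by the listed gene length and the library total. The authors' deposited log2 fold changes and p-values come from their own comparisons and entered no test here.

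Tests used the counts of the table of both sexes with edgeR 4.0.16 in R 4.3.3 (TMM, filterByExpr, two-sided quasi-likelihood test, Benjamini-Hochberg adjustment over all genes tested, threshold 0.05). Terms were genotype and sex, with their interaction in a further fit, and each sex was also fitted alone over its 6 libraries. SE is the size of the fitted change divided by the root of its F, and intervals are 95%. CPM is count over library total. Relations used log2 CPM with a prior count of 2, and permutation p-values of relations used 100000 resamples. Sets of libraries were split at 100 CPM of mt-Nd6. Alternatives were DESeq2 1.42.0, limma 3.58.1 voom, upper-quartile scaling, no filter, a library set term, each set alone, a replicate block, other pseudocounts and leaving out libraries. The edgeR fit of both sexes was also run on simulated counts, which held no library sets, pairing or lens differences. No result here rests on that run. Deviations from group means of same-numbered mutant and wildtype libraries correlated at 0.30, 0.35 and 0.21 in females, each over 0.1. The numbers were therefore taken to pair the females, from the data and not from the labels. In females the libraries numbered 4 were both high in mt-Nd6, those numbered 5 both low, and those numbered 6 differed. The part of this in the correlations was not tested. The males were not paired.

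The members and lists were chosen with earlier results of these data known. Named genes were the 5 members, Eomes, from each list any gene called, the 2 highest in wildtype FPKM and the smallest p in each direction, and the 5 genes most like each member by r among genes with a mean of at least 1 CPM, without predicted genes. Promoter windows came from RefSeq and matched 4 of the 5 members.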

Additional observations from a re-analysis of the deposited data

Results flagged for a closer look

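Pou4f3 in mutant female 4 stood apart from the other mutant libraries, at 8.38 CPM (189 reads), where the other 5 mutant libraries were at 11.1 to 12.7 CPM. Its gap to the next library was 0.631 of the whole range of the 6 mutant libraries, just above the critical value of 0.625 for 6 samples. Chance marks about 1 in 20 groups in this way, and 10 groups of 6 were examined. The same library had the lowest Pou4f1 (87.3 CPM) and Isl2 (11.1 CPM) of all 12 and is 1 of the 5 high in mt-Nd6, and the part of these in the low value was not tested.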

How the results depend on the processing

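No member was called in any comparison under any of the alternatives run. Some of these fits called no gene at all, Eomes included, so the lack of member calls there carries little weight. Without the 3 libraries highest in Cryaa, Eomes had an edgeR adjusted p of 0.131, and with the replicate block in males 0.998. The order of levels was recomputed with 2 other pseudocounts, without each wildtype library and in the mutant libraries, and was the same in these. Over both sexes, the estimates below 0 turned to 0.0080 for Pou4f1 and 0.15 for Isl2 within the libraries low in mt-Nd6, to 0.012 for Pou4f2 and 0.050 for Isl1 within those high in it, and to 0.011 for Isl2 with upper-quartile scaling, where the median of all genes was 0.01 against -0.01. With a term for the library set, the interaction was 0.022 for Pou4f2 and 0.028 for Isl1, and female over male was -0.0017 for Pou4f2, while limma voom gave 0.0022 for Isl1. The cause of these turns was not tested. The count of 4 genes called over both sexes was 15 by DESeq2, 9 with the set term and 0 (251 at an unadjusted p under 0.05, edgeR) without the 3 libraries highest in Cryaa. DESeq2 called 6 genes in males and 10 in females. Across libraries, r was 0.67 for Pou4f1 and Pou4f3, 0.71 for Pou4f1 and Isl2 and 0.68 for Pou4f3 and Isl2 on log2(FPKM + 0.1), each then past the threshold (adjusted permutation p = 0.0376). Within the libraries low in mt-Nd6, r was 0.44 for Pou4f2 and Isl1, no longer past it, and 0.50 for Pou4f3 and Isl1, against -0.15 over all 12.

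The numbers 4, 5 and 6 were not taken to pair the males or the 2 sexes as a whole. In males the correlation of deviations between same-numbered libraries was -0.31, 0.03 and 0.44. With the replicate block edgeR called 1 gene over both sexes, and over both sexes the unadjusted p of Pou4f1 was 0.0312 (adjusted p = 0.849). In females, where the numbers were taken from the data to pair the libraries, the block gave 2 genes called. The block changed no call of a member in any comparison.

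With 1 library left out at a time, mutant over wildtype over both sexes ran from -0.22 to -0.11 for Pou4f1, -0.14 to -0.04 for Pou4f2, -0.21 to -0.09 for Pou4f3, -0.09 to -0.01 for Isl1 and -0.13 to 0.089 for Isl2. In males it ran from -0.31 to -0.16, -0.16 to 0.043, -0.22 to 0.049, -0.13 to 0.062 and -0.36 to -0.07 for the same genes, and in females from -0.20 to 0.047, -0.23 to -0.0099, -0.30 to -0.064, -0.10 to -0.015 and -0.029 to 0.46. The interaction ran from 0.038 to 0.28, -0.16 to 0.060, -0.23 to 0.072, -0.11 to 0.068 and 0.18 to 0.66, and female over male from -0.088 to 0.014, -0.015 to 0.083, -0.19 to -0.059, -0.034 to 0.048 and -0.37 to -0.15. For Pou4f1 over both sexes the edgeR unadjusted p was 0.0384 without mutant female 6 (adjusted p = 0.967). It was 0.0432 without wildtype female 5 (adjusted p = 0.874) and above 0.05 without any other library. Genes with an unadjusted p under 0.05 over both sexes numbered 1852 without mutant male 4, against 311 to 657 without any other. In females they numbered 2175 without mutant female 4 and in males 212 without mutant male 6, with 2 members in each. Genes called numbered 1 to 5 over both sexes, with 1 without mutant male 5, mutant female 6, wildtype male 5, wildtype male 6 or wildtype female 4, and 2 without mutant male 4, wildtype male 4 or wildtype female 5. In females they numbered 0 to 2, with 2 without wildtype female 6 and 0 without any of mutant females 5 and 6 and wildtype females 4 and 5. The 2 genes called without wildtype female 6 were higher in mutants, so Eomes was not among them. The lack of member calls in that fit carries little weight either. The family shares differed by -2.30 to 0.49 points for Pou4f1, -0.65 to 2.65 for Pou4f2, -0.46 to 0.27 for Pou4f3 and -1.70 to 0.84 for Isl1. Log2 ratios of neighbours in wildtype ran from 0.46 to 0.50 for Isl1 over Pou4f2, 0.81 to 0.91 for Pou4f2 over Pou4f1, 1.19 to 1.31 for Pou4f1 over Isl2 and 0.99 to 1.13 for Isl2 over Pou4f3, and 5 libraries allow no exact p under 0.0625. The relation of Pou4f2 and Isl1 ran from 0.78 to 0.86 and passed each time. That of Pou4f1 and Isl1 ran from -0.40 to 0.040 and that of Pou4f1 and Pou4f2 from -0.40 to 0.023.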
